A study of Mus musculus with 10 samples.

Results

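The positive limb of the circadian clock and the nuclear receptor loop that stabilises it were followed through 8 genes, *Npas2*, *Clock*, *Arntl*, *Arntl2*, *Nr1d1*, *Nr1d2*, *Rora*, and *Rorb*, which were found by gene symbol among the 55426 genes of the expression table. RNA-Seq had been performed on thoracic aortas, 3 from control mice and 3 from *Prdm16*SMKO mice. Controls carried *Prdm16*f/f (floxed alleles without a Cre transgene in the sample labels, whereas the study's methods also list Cre mice as controls), and *Prdm16*SMKO mice carried *Prdm16*f/f with *SMMHC*-CreERT2, a tamoxifen-inducible Cre driven by the smooth muscle myosin heavy chain gene *Myh11*. The floxed alleles were thus shared by both groups. The Cre transgene sits on the Y chromosome, the mice were on a C57BL/6J background, and deletion was induced from 8 weeks of age with tamoxifen at 75 mg/kg/day for 5 days and a washout of 2 weeks. Whether the controls received tamoxifen is not given in the sources used here. Nor are the age of the mice and the time of day at harvest. The part of the time of day in any value below was not tested. The paper followed clock genes in aortas by qPCR through a day and night. It reports lower *Npas2* in *Prdm16*SMKO at every time point, and differences in *Cry1*, *Cry2*, and *Per3* at part of them. ChIP-Seq came from other cells, primary mouse fibroblasts (vascular fibroblasts in the labels), into which a lentivirus brought either PRDM16 with a Flag tag or no insert (vector). Infection lasted 48 hours, and puromycin (2 μg/mL) then removed uninfected cells over 1 week before chromatin was precipitated through the tag, with 1 library for each.

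Rhythmic transcription in mammalian cells rests on interlocked feedback loops. CLOCK or its paralog NPAS2 pairs with BMAL1 (encoded by *Arntl*) or BMAL2 (encoded by *Arntl2*), and the pair, a dimer of bHLH-PAS proteins, binds E-boxes and switches on the *Per* and *Cry* repressors and the REV-ERB genes *Nr1d1* and *Nr1d2*. REV-ERBs repress, and RORs activate, genes with a ROR response element (RORE), among which *Arntl*, *Npas2*, and *Clock* are known, so that the second loop feeds back on the activators of the first. In the artery wall, smooth muscle cells hold a running clock that takes part in the daily rhythm of vascular tone.

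*Prdm16*, the targeted gene, read 56.1, 47.6, and 40.3 TPM (a share of all transcripts that is corrected for transcript length) in the control aortas and 23.3, 33.3, and 23.4 TPM in the *Prdm16*SMKO aortas, which lay below every control with a mean at 55.6% of the control mean. Its log2 difference was -0.85 ± 0.18 (SE), which missed the threshold (limma over all genes, Benjamini-Hochberg adjusted *P* = 0.0725). It passed after median-ratio rescaling (adjusted *P* = 0.0232), quantile normalization (0.0335), and rescaling without mitochondrial genes and the most abundant gene (0.0355), and without *Prdm16*SMKO replicate 2 (0.0398). The TPM value covers the whole gene, and the deleted exons were not measured apart. The smooth muscle markers that define the tissue were abundant in every aorta, and their 7 genes summed to 20695 to 24137 TPM in control and 13803 to 17802 TPM in *Prdm16*SMKO aortas, without overlap. Within that list 4 genes (*Acta2*, *Tagln*, *Cnn1*, and *Lmod1*) lay lower without overlap, *Des* lay higher without overlap, and 0 passed the test. Over all tested genes 14.9% lay lower and 4.08% higher without overlap, and 1.07% passed. *Acta2* (limma, adjusted *P* = 0.00962) and *Cnn1* (0.0146) passed after rescaling without mitochondrial genes and the most abundant gene, and *Des* passed after median-ratio rescaling (0.0421) and quantile normalization (0.0365). The part of this lower sum in the values below was not tested. Brown adipocyte markers summed to 419.1 to 1764 TPM in control and 507.2 to 1262 TPM in *Prdm16*SMKO aortas, with *Ucp1* above 0 in every aorta. The other marker lists overlapped between the groups in their sums, with fibroblast markers at 1129 to 1328 against 1104 to 1490 TPM, endothelial markers at 90.9 to 114.3 against 65.5 to 140.5 TPM, macrophage markers at 37.1 to 55.9 against 28.6 to 49.5 TPM, blood markers at 574.9 to 2760 against 453.2 to 1590 TPM, skeletal muscle markers at 10.6 to 14.4 against 4.77 to 13.8 TPM, and Schwann cell and neuron markers at 8.49 to 10.4 against 8.80 to 14.6 TPM. Of the last list, *Snap25* was at 0 in all 6 aortas, while *Mbp* and *Tubb3* lay higher without overlap in *Prdm16*SMKO. In whole aorta a lower level may come from fewer cells of a type or from less RNA per cell, which cannot be told apart. TPM carry no counts, so depth is unknown here, and 13331 to 14007 genes reached 1 TPM per aorta. The most abundant gene, *CT010467.1*, took 20.2 to 28.2% of all TPM in an aorta, and mitochondrial genes took 14.7 to 26.5%. Both shares enter the TPM of every other gene.

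In control aortas the REV-ERB genes stood above the activators. Mean levels fell into the order *Nr1d1* (159.7 TPM), *Nr1d2* (64.5 TPM), *Rora* (23.9 TPM), *Clock* (19.8 TPM), *Npas2* (10.3 TPM), *Arntl2* (5.78 TPM), *Arntl* (2.20 TPM), and *Rorb* (0.0133 TPM). Neighbours in this order did not overlap over the 3 control aortas except *Rora* with *Clock* and *Npas2* with *Arntl2*. In the *Prdm16*SMKO aortas *Npas2* and *Arntl2* changed places, and these were the only neighbours that overlapped there. Among the 15668 genes with a mean of at least 0.5 TPM, the genes tested, *Nr1d1* had a control level above 96.4% of genes, *Clock* above 69.7%, *Npas2* above 53.5%, and *Arntl* above 24.5%. *Rorb* did not reach 0.5 TPM and was not tested, so 7 of the 8 genes were.

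**Figure D1:**
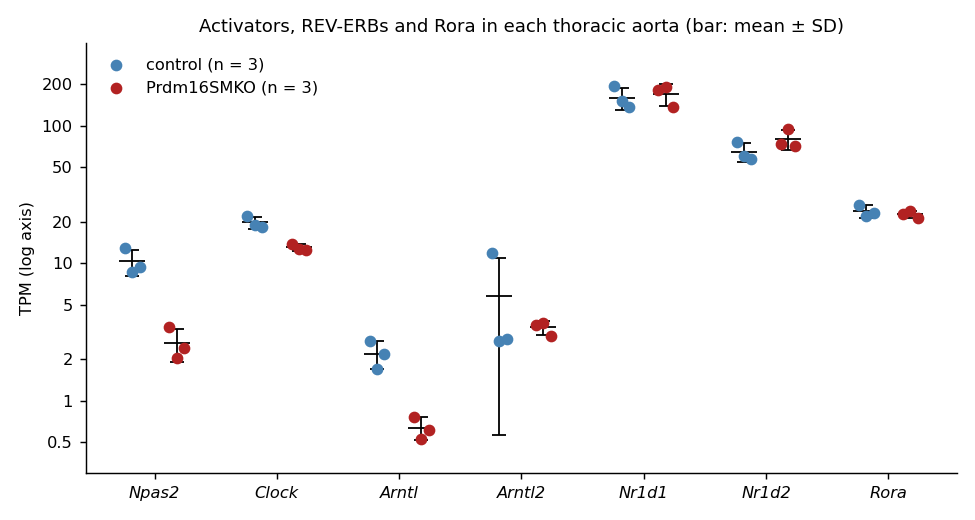
TPM on a log axis of the 7 tested genes in each control (blue) and *Prdm16*SMKO (red) aorta, with bars for the mean ± SD of 3 aortas. *Npas2*, *Clock*, and *Arntl* separate into groups without overlap, *Arntl2* is spread in control by a single aorta at 11.8 TPM, and the REV-ERBs and *Rora* overlap.

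*Npas2*, whose protein pairs with BMAL1 in place of CLOCK, was the member that passed the test. It read 12.9, 8.70, and 9.37 TPM in control and 3.42, 2.04, and 2.41 TPM in *Prdm16*SMKO aortas. The lowest control lay well above the highest *Prdm16*SMKO aorta, and the mean fell from 10.3 ± 2.23 to 2.62 ± 0.714 TPM (SD, n = 3), to 25.5% of control. The log2 difference was -1.95 ± 0.24 (SE; limma, Benjamini-Hochberg adjusted *P* = 0.00792), a change larger in size than that of 98.3% of the tested genes. Over all genes 1.07% were called in either direction and 0.683% were called lower, and of the 7 tested members 1 was called and 0 were called higher. Without a mean-variance trend in limma the same difference had an adjusted *P* of 0.0595, where 48 genes in place of 168 were called. That miss belongs to a fit on TPM. The paper lists *Npas2* as downregulated among its differentially expressed genes with PRDM16 promoter peaks, and reports binding at its promoter by ChIP-qPCR. With any 1 aorta left out, *Npas2* stayed between -2.15 and -1.78 and its adjusted *P* did not exceed 0.0423. These p-values measure the spread between these samples, since beyond the sample labels nothing names the animals behind them.

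*Arntl* encodes BMAL1, the partner without which the clock stops. Its TPM values were 2.71, 1.70, and 2.18 in control and 0.77, 0.53, and 0.62 in *Prdm16*SMKO aortas. Every *Prdm16*SMKO aorta was below every control, and the mean stood at 29.1% of control (2.20 ± 0.505 TPM against 0.640 ± 0.121 TPM, SD, n = 3), close to the share left of *Npas2*. The log2 difference was -1.62 ± 0.35 (SE), but the adjusted *P* in limma was 0.0721 and the gene was not called, nor was it under any of the 15 alternative settings, whose adjusted *P* ran from 0.0504 to 0.257. The miss belongs to these fits on TPM. The paper lists *Arntl* as downregulated among its differentially expressed genes with PRDM16 promoter peaks. At this level the fold change rests on the constant added before the logarithm, and the log2 difference was -0.95 with 1 TPM and -1.75 with 0.01 TPM in place of 0.1 TPM.

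*Clock* read 22.1, 18.9, and 18.4 TPM in control and 13.9, 12.8, and 12.6 TPM in *Prdm16*SMKO aortas. Here too every *Prdm16*SMKO aorta lay below every control, with a mean at 65.8% of control (19.8 ± 1.99 against 13.1 ± 0.698 TPM, SD, n = 3). The log2 difference of -0.60 ± 0.14 (SE) had an adjusted *P* of 0.0875 in limma and missed the threshold. *Npas2*, *Arntl*, and *Clock* were thus the 3 of 7 tested members whose groups did not overlap, all of them lower, where 14.9% of all tested genes lay lower without overlap and 19.0% did not overlap in either direction. The median tested gene stood at -0.12 on the log2 scale, a shift that a median-ratio rescaling removed, and relative to it *Npas2* lay at -1.83, *Arntl* at -1.51, and *Clock* at -0.48. After a rescaling that left out mitochondrial genes and the most abundant gene *Clock* passed the test (log2 difference, -0.50; limma, adjusted *P* = 0.0472).

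*Arntl2* encodes BMAL2, the alternative partner of CLOCK and NPAS2. It read 11.8, 2.73, and 2.81 TPM in control and 3.58, 3.69, and 2.98 TPM in *Prdm16*SMKO aortas. Control replicate 1 was the sole aorta far from the rest, and the other 2 controls lay below all 3 *Prdm16*SMKO aortas. The log2 difference of -0.40 ± 0.49 (SE; limma, adjusted *P* = 0.783) turned to 0.29 without control replicate 1 (adjusted *P* = 0.735), so these data give *Arntl2* no direction. The same aorta had the highest *Npas2*, *Arntl*, *Clock*, *Nr1d1*, *Prdm16*, and smooth muscle marker sum of the controls, but by far smaller margins.

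Because TPM are per transcript length, paralogs can be set against each other within an aorta, where a rescaling of that aorta cancels out. *Npas2* stood at 0.581, 0.459, and 0.508 times the level of *Clock* in control aortas and at 0.247, 0.160, and 0.192 times in *Prdm16*SMKO aortas. No value was shared between the groups, and *Npas2* made up 34.0 ± 2.65% of the summed *Npas2* and *Clock* transcripts in control and 16.6 ± 3.04% in *Prdm16*SMKO aortas (SD, n = 3). The log2 ratio, with 0.1 TPM added to each gene, was lower by -1.35 (exact two-sided permutation test, *P* = 0.1, the smallest that 3 against 3 aortas allow; adjusted over the 3 ratios tested, 0.2). With 3 aortas a group this test cannot pass 0.05 for any ratio.

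*Arntl2* stood at 4.36, 1.61, and 1.29 times the level of *Arntl* in control and at 4.65, 6.96, and 4.81 times in *Prdm16*SMKO aortas. *Arntl2* was the higher of the pair in every aorta. The plain ratios did not overlap, but control replicate 1 lay just below the *Prdm16*SMKO range. On the log2 scale with 0.1 TPM added the groups overlapped through that aorta (2.08, 0.65, and 0.35 against 2.08, 2.59, and 2.10). The difference was 1.23 (exact permutation test, *P* = 0.2). The summed *Arntl* and *Arntl2* level was 14.5, 4.43, and 4.99 TPM in control and 4.35, 4.22, and 3.60 TPM in *Prdm16*SMKO aortas, which did not overlap but, outside control replicate 1, lay close together. For the pair on the other side of the dimer, the sum of *Npas2* and *Clock* was 35.0, 27.6, and 27.8 TPM in control and 17.3, 14.8, and 15.0 TPM in *Prdm16*SMKO aortas, which did not overlap and left 0.520 of the control mean.

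**Figure D2:**
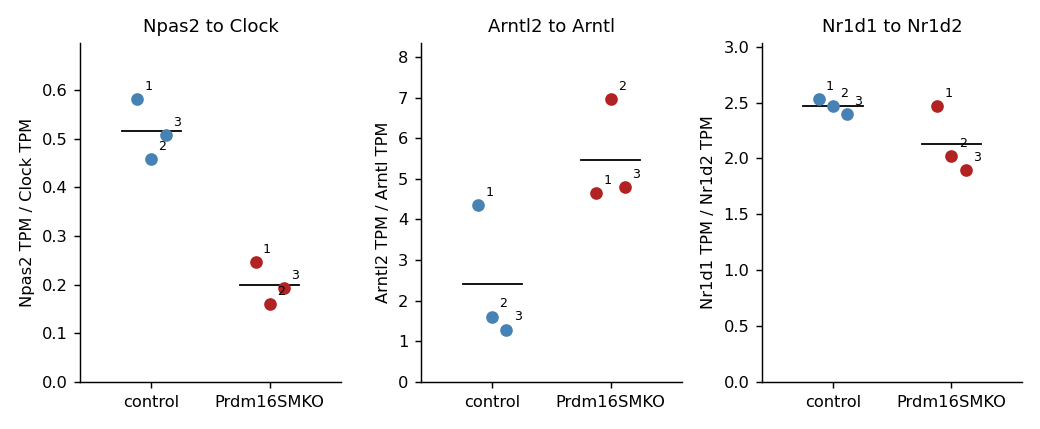
Ratio of TPM between paralogs in each aorta, with the replicate number beside each point and a line for the group mean. Every axis starts at 0. *Npas2* to *Clock* is 0.459 to 0.581 in control and 0.160 to 0.247 in *Prdm16*SMKO aortas, *Arntl2* to *Arntl* is separated from the *Prdm16*SMKO range by little in control replicate 1, and *Nr1d1* to *Nr1d2* overlaps.

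The REV-ERB genes, repressors of *Arntl*, *Npas2*, and *Clock*, did not pass the test in either direction. *Nr1d1* (REV-ERBα) read 193, 149.6, and 137 TPM in control and 182, 192, and 135 TPM in *Prdm16*SMKO aortas. The ranges lay almost on top of each other, with a log2 difference of 0.09 ± 0.17 (SE; limma, adjusted *P* = 0.876). The sign turned without control replicate 3 (-0.02) and without *Prdm16*SMKO replicate 2 (-0.01). The 3′ end of *Nr1d1* overlaps that of *Thra*, the thyroid hormone receptor α gene on the other strand, over 263 exon bases or 8.55% of the exon length of *Nr1d1*. The library kit is not described as strand specific, so whether reads there were assigned to the right gene is not known. *Thra* read 178, 146, and 152 TPM in control and 135, 142, and 101 TPM in *Prdm16*SMKO aortas, the lower range in the latter without overlap (log2 difference, -0.34; limma, adjusted *P* = 0.391).

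*Nr1d2* (REV-ERBβ) read 76.0, 60.5, and 57.1 TPM in control and 73.6, 95.1, and 71.2 TPM in *Prdm16*SMKO aortas. *Prdm16*SMKO replicate 2 was the highest, and control replicate 1 kept the groups overlapping. The log2 difference of 0.31 ± 0.16 (SE; limma, adjusted *P* = 0.459) was positive in all 15 alternatives, and after a median-ratio rescaling it was 0.43 with an adjusted *P* of 0.0491. In the paper *Nr1d2* is listed as upregulated among the differentially expressed genes with PRDM16 promoter peaks. *Nr1d1* stood at 2.53, 2.47, and 2.40 times *Nr1d2* in control and at 2.47, 2.02, and 1.90 times in *Prdm16*SMKO aortas. The control values differed little and *Prdm16*SMKO replicate 1 lay among them (log2 difference, -0.22; exact permutation test, *P* = 0.2, adjusted over the 3 ratios 0.2).

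*Rora*, which encodes the activator RORα at the same response elements, had the smallest log2 difference of the 7. It read 26.7, 21.9, and 23.1 TPM in control and 22.7, 24.2, and 21.5 TPM in *Prdm16*SMKO aortas, with overlapping groups and a log2 difference of -0.07 ± 0.13 (SE; limma, adjusted *P* = 0.874). The sign turned under the 3 rescalings (0.05, 0.04, and 0.03) and without control replicate 1 (0.02), so no direction can be given. *Rorb*, which encodes the RORβ of brain and retina, was listed at 0, 0, and 0.04 TPM in control and 0, 0.01, and 0.01 TPM in *Prdm16*SMKO aortas, so no ratio to *Rora* was formed. Summed REV-ERB transcripts stood at 10.1, 9.57, and 8.40 times *Rora* in control and at 11.3, 11.9, and 9.62 times in *Prdm16*SMKO aortas, which overlapped. Against *Arntl*, the gene that both act on, *Nr1d1* stood at 71.1, 88.0, and 62.8 times in control and at 236, 362, and 218 times in *Prdm16*SMKO aortas, without overlap. The mean of *Nr1d1* itself stood at 106.2% of control, so this ratio restates the lower *Arntl* level and is not a further result.

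**Figure D3:**
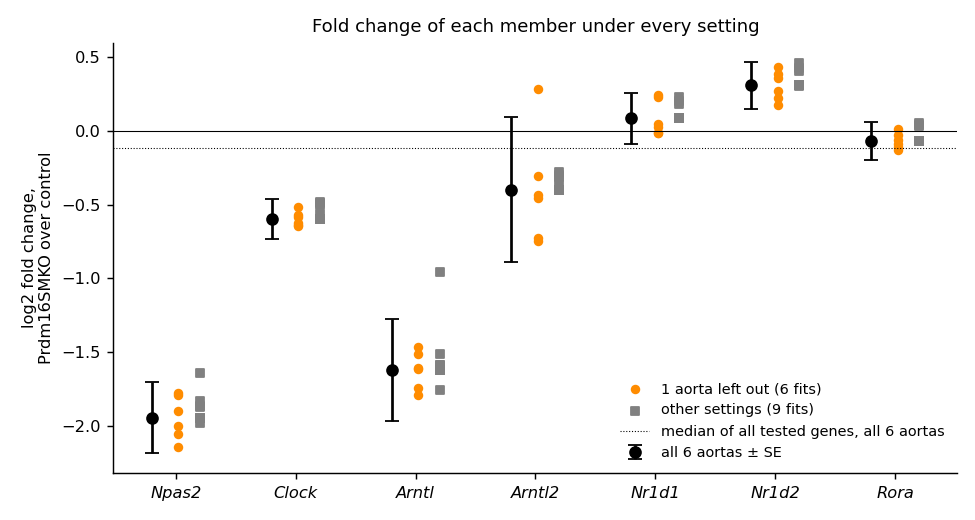
Log2 fold change (*Prdm16*SMKO over control, with limma) of the 7 tested genes, shown with all 6 aortas ± SE (black), with each aorta left out in turn (orange), and under the 9 other settings (grey). *Npas2*, *Arntl*, and *Clock* stay below 0 and below the median gene (dotted, -0.12) throughout, *Nr1d2* stays above 0, and *Arntl2*, *Nr1d1*, and *Rora* reach both sides of 0.

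The genes on which this loop acts were counted by list, beside a median log2 difference of -0.12 over all tested genes. Of 15 genes known as E-box targets of the activators, all 15 had a positive log2 difference with all 6 aortas, with a median of 0.58, and 3 were called higher and 0 lower, where 0.389% of all tested genes were called higher. The count was 9 after median-ratio rescaling, 8 after quantile normalization, 6 after rescaling without mitochondrial genes and the most abundant gene, and 0 without a trend. Over all tested genes those settings called 196, 189, 152, and 24 genes higher, in place of 61. The 3 genes were *Cry1* (1.64; limma, adjusted *P* = 0.0119), which encodes a repressor of the activator dimer, *Ciart* (1.79; adjusted *P* = 0.0199), which encodes a further repressor, and *Bhlhe40* (1.11; adjusted *P* = 0.00892), whose protein competes for E-boxes. Values of *Per1* (0.58), *Per2* (0.63), *Bhlhe41* (0.77), *Tef* (0.51), and *Wee1* (0.63) did not overlap between the groups but were not called, so that 8 of the 15 lay higher without overlap, where 4.08% of all tested genes did. Genes not called here may be called in the paper, which lists *Per2*, *Bhlhe41*, *Tef*, *Wee1*, and *Hlf* as upregulated among its differentially expressed genes with PRDM16 promoter peaks. The REV-ERB genes, also on this list, were the lowest of it with *Cry2* (0.07). Without *Prdm16*SMKO replicate 2, 13 of 15 were positive with a median of 0.40, and without control replicate 3, 14 of 15 with a median of 0.46. *Ciart* was not called without control replicate 1 (adjusted *P* = 0.0754) or control replicate 3 (adjusted *P* = 0.0835), nor with no filter (adjusted *P* = 0.0621). Without a trend *Ciart* (0.114), *Cry1* (0.0512), and *Bhlhe40* (0.0618) all missed the threshold in limma.

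Of 5 genes known as RORE targets, 1 was called lower and 1 higher, with a median log2 difference of -0.65. Over all tested genes 0.683% were called lower and 0.389% higher. The called genes were *Npas2* and *Cry1*, which moved in opposite directions. Both are listed as targets of REV-ERB and ROR, and *Cry1* is also counted among the E-box targets above. *Arntl*, *Clock*, and *Nfil3* (-0.65; limma, adjusted *P* = 0.319), which encodes a repressor of D-box genes, lay lower without overlap. This list shares 3 genes with the activators. Of 17 other core clock genes, which share most genes with the E-box list, 3 were called higher and 0 lower, 7 lay higher and 2 lower without overlap (4.08% and 14.9% over all tested genes), and the median was 0.51. The pair that lay lower comprised *Nfil3* and *Timeless* (-0.93; adjusted *P* = 0.173).

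Relatives of the activators were set beside them. Over all tested genes the median was -0.12, 0.389% were called higher, and 14.9% lay lower without overlap. Of 12 other genes of the bHLH-PAS family, 7 were tested, 1 was called higher, and 0 were called lower, with a median of 0.33. The called gene was *Epas1*, which encodes the hypoxia-inducible factor HIF-2α, at 64.0, 70.3, and 65.8 TPM in control and 111.3, 97.2, and 99.1 TPM in *Prdm16*SMKO aortas (log2 difference, 0.62; limma, adjusted *P* = 0.0384). The groups were far apart, but the call was lost when any 1 of the 6 aortas was left out (adjusted *P* up to 0.191). These losses belong to the fits on TPM. The paper lists *Epas1* as upregulated among its differentially expressed genes with PRDM16 promoter peaks. *Hif1a*, which encodes HIF-1α, lay lower without overlap at -0.23 (adjusted *P* = 0.437), and *Arnt*, the common partner of that branch, overlapped at -0.21. The 5 untested relatives included *Npas1* and *Npas3*, the nearest by name to *Npas2*, which were at 0.35 TPM or less in every aorta, and *Sim2*, whose values did not overlap but were near 0 (0.02, 0, and 0.03 TPM in control and 0.05, 0.06, and 0.05 TPM in *Prdm16*SMKO aortas). *Npas4*, a neuronal activity gene, read 6.92 to 7.62 TPM in control and 7.22 to 13.0 TPM in *Prdm16*SMKO aortas.

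Of 12 coregulators of REV-ERB and ROR, among them the corepressor *Ncor1* with *Hdac3* and the coactivators *Crebbp*, *Ep300*, and *Ppargc1a*, 0 were called in limma, and the median was -0.15 beside -0.12 over all genes. *Tbl1xr1*, a subunit of the same corepressor complex (-0.45; adjusted *P* = 0.273), and the coactivator gene *Ncoa1* (-0.25; adjusted *P* = 0.529) lay lower without overlap. Over all tested genes 14.9% did so, a share near that of this list. *Ppargc1a* (0.38) was the sole gene of the list above 0, and after a median-ratio rescaling 4 of the 12 were above 0.

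**Figure D4:**
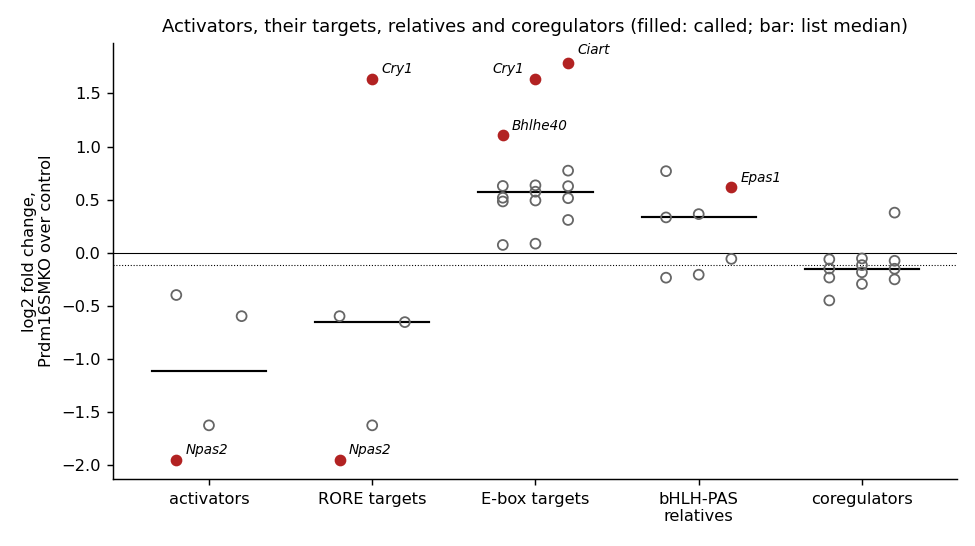
Log2 fold change (*Prdm16*SMKO over control, with limma and all 6 aortas) of the tested genes of 5 lists, with called genes filled and named, a bar for each list's median, and a dotted line for the median of all tested genes (-0.12). All 4 activators lie below 0, all 15 E-box targets above it, the RORE targets *Npas2* and *Cry1* are called in opposite directions, and the coregulators lie around the median gene. *Arntl2* is above 0 without control replicate 1.

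The genes most like *Npas2* over the 6 aortas, among 13685 tested genes with a mean of at least 1 TPM, were the syndecan gene *Sdc1* (Pearson's r of log2 values, 0.996), *Ace* (0.996), *Arntl* (0.995), *Lox* (0.994), and *Aspn* (0.994). *Ace* encodes angiotensin-converting enzyme and *Lox* encodes lysyl oxidase, which crosslinks elastin and collagen. For *Arntl* they were *Cav3* (0.998), *Rpn1* (0.996), *Psmd13* (0.995), *Limch1* (0.995), and *Vldlr* (0.995). These are descriptions over 6 points that share libraries and fall into 2 groups, so that a difference between the groups alone gives a high r. All 10 were lower in *Prdm16*SMKO by their means, and *Arntl* was the sole clock gene among them.

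The deposited ChIP-Seq list held 11271 PRDM16 peaks, and the vector list held 67, of which 0 overlapped a PRDM16 peak at these genes. Each condition had 1 library, so peak values carry no replicate error and were not tested, and no expression values of the fibroblasts were used here to check their label. A promoter peak, one with its centre within 2 kb of the transcription start site (TSS) of a curated RefSeq transcript, was found at 5 of the 8 genes, namely *Npas2*, *Clock*, *Arntl*, *Nr1d2*, and *Rora*. The share was 26.0% over all 26180 genes with such a start and 43.8% over the 12551 of them that were tested, and of the 7 tested members 5 had one. Counting promoter and gene body together, 15 peaks lay at 6 of the genes. The 5 genes with a promoter peak comprise all 3 whose groups did not overlap, but also *Nr1d2* and *Rora*, which did.

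At *Npas2* (chromosome 1, forward strand, 39193731 to 39363236 of GRCm38 in GENCODE M21, as for the other spans) there were 2 promoter peaks, with centres 1032 and 213 bp before the TSS at 39194272, the second at chr1:39193836-39194282. Their fold enrichments over local background were 5.98 and 5.04, above 66.4% and 47.7% of all peaks and so near the median of 5.27. The first lies wholly outside the gene, and the second reaches the RefSeq TSS. There were 3 further peaks in introns 1, 2, and 3, at 62.8, 90.7, and 93.4 kb after the TSS, with fold enrichments of 5.27, 5.98, and 4.22. Its 5 peaks in promoter and body were the most of any member.

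At *Arntl* (chromosome 7, forward strand, 113207465 to 113314126) a single wide peak of 1066 bp, chr7:113207579-113208644, covered the start of intron 1, with its centre 601 bp after the TSS. Its fold enrichment of 8.79 was above 93.8% of peaks. A pair of further peaks lay about 21 kb upstream, at 4.22 and 6.33. At *Clock* (chromosome 5, reverse strand, 76209868 to 76304792) the peak at chr5:76304544-76305283 spanned the TSS, with its centre 122 bp before it and a fold enrichment of 6.33. The centre is nearer, at 38 bp, to the start of the noncoding gene *Gm7467*. *Arntl2* had no promoter peak by RefSeq starts, and its nearest peak, chr6:146795785-146796242 with a fold enrichment of 4.34, lay 9516 bp upstream. This peak covers the starts at 146796055 and 146796065 that GENCODE M21 gives to *Arntl2*, so whether it counts as a promoter peak depends on the annotation, a comparison chosen after the data were seen.

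Among the nuclear receptors, *Rora* (chromosome 9, forward strand, 68653786 to 69388246) had the strongest promoter peak, chr9:68653371-68654224, with its centre 12 bp after the TSS and a fold enrichment of 10.9, above 97.9% of peaks. It had 2 other promoter peaks, 1079 bp after the same TSS (5.98) and 114 bp after its second RefSeq TSS (4.36), and an intronic peak 159.7 kb into the gene. *Nr1d2* (chromosome 14, reverse strand, 18204054 to 18239127) had 1 peak, chr14:18238671-18239010, with its centre 265 bp after the TSS and a fold enrichment of 5.63. *Nr1d1* (chromosome 11, reverse strand, 98767932 to 98775333) had no promoter peak in the 2 kb window, but 3 in its body. The strongest peak at any of the 8 genes was here, chr11:98768188-98769202, with a fold enrichment of 12.9 above 99.2% of peaks, in intron 7 and over the last exon of *Thra*, 6682 bp after the TSS of *Nr1d1*. The peak in intron 1, with its centre 2637 bp after the TSS (5.89), is counted with a window of 5 kb. At *Rorb* (chromosome 19, reverse strand, 18930605 to 19111196) the nearest peak was 330.1 kb away.

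**Figure D5:**
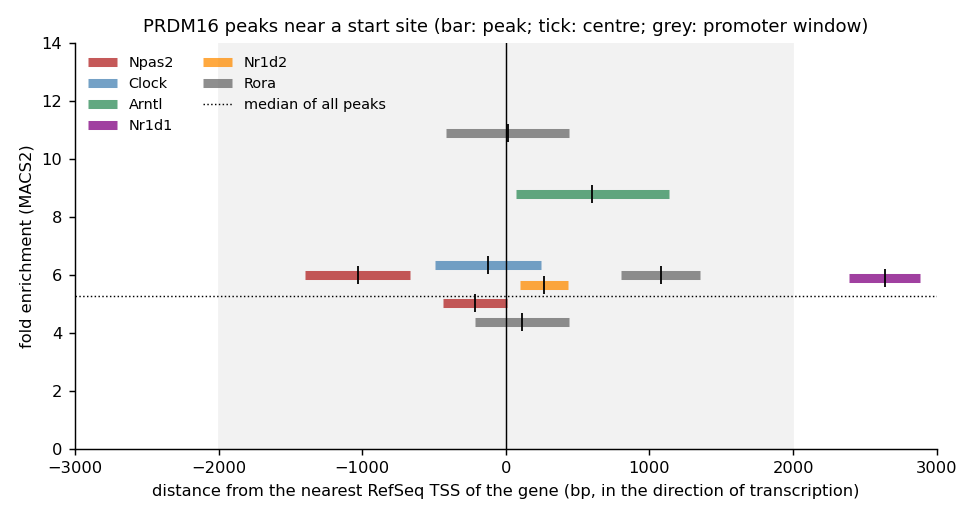
PRDM16 peaks with a centre within 3 kb of a RefSeq TSS of a member, as distance from that TSS in the direction of transcription against MACS2 fold enrichment. Bars span each peak, ticks mark centres, and the dotted line is the median of all peaks (5.27). The strongest of them are at *Rora* (10.9, on the TSS) and *Arntl* (8.79, after it), the *Npas2* pair lies before its RefSeq TSS near the median, and the *Nr1d1* peak lies beyond the grey 2 kb window.

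The reference sequence at the promoter summits is shown because these peaks stand at activators whose groups did not overlap and at *Rora*, whose groups did. Each run is the 100 bases around the summit read 5′ to 3′ on the forward strand of GRCm38, with CG dinucleotides in capitals.
Npas2, chr1:39194073-39194172: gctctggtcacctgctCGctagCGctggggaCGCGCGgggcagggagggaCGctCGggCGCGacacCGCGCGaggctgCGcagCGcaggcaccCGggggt
Arntl, chr7:113207894-113207993: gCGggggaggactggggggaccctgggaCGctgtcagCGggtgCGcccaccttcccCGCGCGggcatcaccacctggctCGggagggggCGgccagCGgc
Rora, chr9:68654084-68654183: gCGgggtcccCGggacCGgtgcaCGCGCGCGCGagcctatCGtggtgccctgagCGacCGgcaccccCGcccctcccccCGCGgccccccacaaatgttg

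Over the 11258 peaks on chromosomes the summit windows had medians of 64.0% G and C and 6 CG. The *Npas2* summit shown held 78.0% and 15 CG, the *Arntl* summit 79.0% and 10 CG, and the *Rora* summit 78.0% and 14 CG, which put their G and C content above that of 86.5 to 89.3% of peaks. The summits at *Clock* (79.0%, 13 CG) and *Nr1d2* (79.0%, 15 CG) had the same composition. The other promoter summit at *Npas2*, whose peak has the higher fold enrichment of that pair, held less (61.0%, 6 CG). The other promoter summits at *Rora*, at 59.0 and 70.0%, and those in the introns of *Npas2*, at 57.0, 59.0, and 59.0%, also held less, so the composition was not shared by every promoter peak.

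Clock motifs were searched in the 300 bases around each of the 15 summits by exact letters on both strands. The E-box CACGTG, the E-prime-box CACGTT, the RORE core TAGGTCA, and the D-box, TTATGTAA or TTACGTAA, were each found at 0 of the 15, where 5.11, 4.41, 1.65, and 0.346% of all peaks held them. The shorter nuclear receptor motif AGGTCA, which is part of the RORE core, lay at 3 peaks (introns 2 and 3 of *Npas2* and the *Nr1d2* promoter; 14.1% of all peaks), and the GATA core AGATAA at 2 peaks (intron 7 and intron 1 of *Nr1d1*; 6.48% of all peaks). In the RefSeq promoter windows of the 8 genes, which run from 250 bases before to 50 bases after each start, the RORE core was found at *Arntl* alone, where 2.61% of 32851 RefSeq promoters held it. It is shown with its flanks because it is the element through which REV-ERB and ROR act, with the core in capitals, on the forward strand of GRCm38.
Arntl, chr7:113207529-113207558: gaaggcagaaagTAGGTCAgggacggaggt

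The core starts 30 bp after the TSS at 113207511 and ends 32 bp before the PRDM16 peak begins, so the peak did not cover it. *Npas2* and *Clock*, the other activators known as RORE targets, had no match in these windows, which says only that these letters are not there. An E-prime-box was found in the promoter windows of *Nr1d1* and *Rorb*, which 4.68% of RefSeq promoters held, and the E-box CACGTG was found at 0 of the 8 genes, against 7.15% of RefSeq promoters.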

How the data were processed

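Expression values are TPM, which the authors deposited in a table of all aortas. Per the labels, libraries were poly(A) selected, and the submitters' processing notes name cutadapt 2.3, STAR 2.7.8a, RSEM 1.3.3, and GRCm38. For ChIP-Seq the authors deposited MACS2 peaks, mapped with Bowtie2 2.3.4.1, with the summit, the fold enrichment as a ratio, the −log10 p, and the −log10 q of each peak. The integer score that MACS2 gave each peak, also deposited by the authors, and the IgG libraries were not used. The highest q in the PRDM16 list was 0.0483, above the cutoff of 0.01 that the paper states for its peak calls. The deposited list, on which the peak counts here rest, thus reaches beyond that cutoff. The control library of the peak calls is not given in the sources used here.

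Groups were compared with limma 3.58.1 (R 4.3.3) on log2(TPM + 0.1), with a mean-variance trend, over the 15668 genes with a mean of at least 0.5 TPM, without covariates. Benjamini-Hochberg adjusted p-values had a threshold of 0.05. A fold change on this scale understates that of low genes. Ratios were compared by exact permutation tests. Motifs were matched in GRCm38.p6 from RefSeq and in its promoter table, where all 8 genes were found. The procedure was tested on simulated data. Replicate numbers did not pair the aortas.

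All members are named with their values; of the lists, genes that were called or whose groups do not overlap, the 5 genes most correlated with *Npas2* and with *Arntl*, and genes overlapping a member. A few listed genes and a sequence are not reported here, and the genes are left out of the counts. Members, gene lists, and tests were chosen with earlier results of these data known. Scripts ran in Python 3.11.15 with scipy 1.17.1 and pandas 2.3.3, sequences were read with pysam 0.24.0, and figures were drawn with matplotlib 3.10.9.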

Additional observations from a re-analysis of the deposited data

How the results depend on the processing

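The 15 alternatives of the expression test comprised other pseudocounts, filters, and scalings, a fit without a trend, the replicate block, and each aorta left out. Over all genes, 168 calls became 110 without a filter, 411 after median-ratio rescaling, 392 after quantile normalization, 370 after rescaling without mitochondrial genes and the most abundant gene, and 48 without a trend, and 91 (without control replicate 1) to 141 with 1 aorta left out. Of the members, 1 was called, and 2 were after median-ratio rescaling (*Npas2* and *Nr1d2*) and after rescaling without mitochondrial genes and the most abundant gene (*Npas2* and *Clock*), and 0 were without a trend, where *Npas2* remained at -1.95; leaving out any aorta left 1. Of the other core clock genes, 3 were called, 7 after median-ratio rescaling and after quantile normalization, 6 after the rescaling without mitochondrial genes, 0 without a trend, and 2 to 3 with 1 aorta left out.

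Signs turned for *Arntl2* without control replicate 1 (0.287), for *Nr1d1* without control replicate 3 (-0.017) and without *Prdm16*SMKO replicate 2 (-0.011), and for *Rora* after median-ratio rescaling (0.051), quantile normalization (0.040), and rescaling without mitochondrial genes (0.032), and without control replicate 1 (0.015). With 1 aorta left out they ran from -0.749 to 0.287, from -0.017 to 0.241, and from -0.126 to 0.015. The cause was not tested. With 1 aorta left out, the log2 ratio difference stayed between -1.51 and -1.21 for *Npas2* to *Clock*, between 0.89 and 1.75 for *Arntl2* to *Arntl*, and between -0.33 and -0.15 for *Nr1d1* to *Nr1d2*, and each kept its sign under all 9 alternatives.

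Aortas of the same replicate number did not deviate together, with correlations of -0.02, -0.07, and -0.01. With the replicate block, 184 genes, 1 member, and 3 other core clock genes were called, and *P* for the ratios, in exact sign permutations, was 0.25, 0.5, and 0.25, of which 0.25 is the smallest possible.

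Counting as promoters only the 1 kb before and the 100 bp after a start, 3 members (*Npas2*, *Clock*, and *Rora*) and 2385 in place of 6818 genes had a promoter peak. Peaks with a q of at most 1e-05 left 5 members and 4432 genes. A window of 5 kb gave 6 members, and GENCODE M21 starts, an alternative chosen after the data were seen, gave 7. Within 100 in place of 300 bases of summit sequence, 1 in place of 5 of the 15 member peaks held any searched motif. Depth is unknown for TPM and peaks, and the exact test of the ratios cannot go below 0.1 with 3 aortas a group.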
